A study of Homo sapiens with 16 samples.

Results

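The regions described here are promoters that carried peaks of both trimethylation at lysine 4 of histone H3 (H3K4me3) and trimethylation at lysine 27 (H3K27me3) in vehicle-exposed MCF-10A cells. MCF-10A is an established, nontransformed human breast epithelial line, so all libraries come from 1 line. Cells had been exposed for 24 hours to vehicle (PBS) or to 5 mM octanoic acid (OA), a medium-chain fatty acid. The marks were mapped by CUT&RUN, in which an antibody-tethered nuclease releases DNA next to the marked nucleosomes, with 3 libraries for each mark and exposure. A further 2 H3K4me3 libraries and 2 libraries with a nonspecific IgG antibody came from untreated cells. The labels describe cells seeded in biological triplicate, and the 4 untreated libraries carry no vehicle or OA exposure. Peaks of the 6 vehicle and OA H3K4me3 libraries that shared at least 1 base were merged into 28846 regions, of which 18539 lay within 3 kb of an annotated transcript start and are called promoter regions here. A promoter region was a member if at least 1 vehicle library had an H3K4me3 peak there and at least 2 vehicle libraries had an H3K27me3 peak overlapping it. This gave 146 members, named after 140 genes. Because vehicle calls chose the members, their vehicle calls are a description, and vehicle against OA at the members is given without a test.

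H3K4me3 is deposited at the starts of active or poised genes, mostly in CpG islands, by the SET1 and MLL methyltransferase complexes. H3K27me3 is deposited by Polycomb repressive complex 2 and marks genes held silent, many of them developmental regulators. Promoters with both marks are often called bivalent and are known from stem cells as silent, poised developmental genes. In these bulk libraries, both marks on the same nucleosomes cannot be told apart from each mark on different alleles or in different cells, nor can fewer marked cells be told apart from less mark per cell.

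The letters upstream of the start site are shown for 5 members because the results below turn on them and because CpG content, the feature that both marks are known to follow, can be read from them directly. BMP6, HOXB2 and SP5 had H3K27me3 peaks in every vehicle library and in no OA library. HRK and SUSD5 had an H3K4me3 peak in 1 vehicle library and in every OA library. Each run gives the 200 bases upstream of the start site on the gene's strand, 5′ to 3′, in build hg38, at chr6:7725899-7726098 (+) for BMP6, chr17:48543910-48544109 (-) for HOXB2, chr2:170715137-170715336 (+) for SP5, chr12:116879618-116879817 (-) for HRK and chr3:33218811-33219010 (-) for SUSD5. None of these windows overlaps an annotated exon, all lie inside their member region, and capitals mark CG pairs.
BMP6: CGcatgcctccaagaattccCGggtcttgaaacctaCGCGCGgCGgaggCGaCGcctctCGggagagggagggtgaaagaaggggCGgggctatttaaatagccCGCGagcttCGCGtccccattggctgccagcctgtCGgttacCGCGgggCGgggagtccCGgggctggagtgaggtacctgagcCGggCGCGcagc
HOXB2: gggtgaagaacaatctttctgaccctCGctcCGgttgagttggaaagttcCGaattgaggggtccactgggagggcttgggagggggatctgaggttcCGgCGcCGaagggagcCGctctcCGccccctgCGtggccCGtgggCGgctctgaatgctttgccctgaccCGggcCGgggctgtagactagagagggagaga
SP5: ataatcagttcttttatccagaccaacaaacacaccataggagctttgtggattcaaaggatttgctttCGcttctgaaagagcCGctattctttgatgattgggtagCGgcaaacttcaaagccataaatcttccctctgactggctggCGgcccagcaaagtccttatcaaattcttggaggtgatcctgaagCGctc
HRK: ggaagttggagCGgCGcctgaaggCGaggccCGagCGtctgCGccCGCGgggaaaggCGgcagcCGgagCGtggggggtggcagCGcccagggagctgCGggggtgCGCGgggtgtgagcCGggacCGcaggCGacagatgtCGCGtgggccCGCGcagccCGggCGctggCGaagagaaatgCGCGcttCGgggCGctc
SUSD5: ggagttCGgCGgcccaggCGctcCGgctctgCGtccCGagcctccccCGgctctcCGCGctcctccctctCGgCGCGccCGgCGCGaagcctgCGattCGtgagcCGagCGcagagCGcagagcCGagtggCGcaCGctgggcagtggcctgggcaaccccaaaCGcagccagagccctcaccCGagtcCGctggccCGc

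The CG pair reads the same on both strands, and its number in these windows ran from 5 at SP5 and 13 at HOXB2 through 22 at BMP6 to 27 at SUSD5 and 29 at HRK. Over the 90 members that covered a protein-coding start site and lay under no IgG peak, the median was 21 CG pairs. It was 19 over 12505 other promoter regions of the same kind. At least 20 pairs were found in 56.7% of those members and 47.6% of the other regions, so the members were CpG rich in the way promoters are in general. In a 400-base window at the strongest H3K4me3 summit, the median ratio of observed to expected CG pairs was 0.789 (other promoter regions, 0.729) and the median GC content 66.9% (64.3%). Member regions were about as long as the others, with medians of 1167 and 1199 bases.

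Of the 146 members, 113 were named after a protein-coding gene, 16 after a long noncoding RNA gene and 15 after a pseudogene. Pseudogenes were 10.3% of the members and 3.29% of the other promoter regions. Without the members under an IgG peak, pseudogenes were 6.20%. In all, 17 members (11.6%) lay under a peak of at least 1 IgG library, where 1.15% of all promoter regions did. By library, 16 and 15 members lay under an IgG peak, beside 1.08% and 0.318% of all promoter regions. These 17 regions included multicopy sequence, such as DUX4 and DUX4-like copies, 4 regions named after the pseudogene ROCK1P1, and RPH3AL and MUC3A. They had a median CpG ratio of 0.350, and 41.2% of them were named after pseudogenes. Reads from near-identical copies cannot be placed with certainty and an IgG peak does not come from either mark, so counts below are also given for the 129 members with no IgG peak. Of these, 109 were named after protein-coding genes, and their median CpG ratio was 0.802.

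The H3K27me3 peak files differed widely in size, with 18801, 47648 and 28850 peaks in the vehicle libraries and 32363, 25540 and 9091 in the OA libraries. The H3K4me3 files were closer, with 16086 to 19953 vehicle peaks and 17975 to 21033 OA peaks. Only peak lists were used, so the depth of each library is unknown, and a missing call may be signal below the caller's threshold. Among marker genes chosen for breast epithelium, 7 of 12 had a promoter H3K4me3 region called in all 3 vehicle libraries (KRT5, KRT17, KRT8, KRT18, ITGB4, CDH3 and EGFR) and the remaining 5 in 1 or 2. Of the markers of other cell types, 1 of 5 immune genes (CD14), 0 of 4 endothelial genes and 0 of 5 fibroblast genes were called in all 3, and PTPRC, KDR, COL1A1 and PDGFRB were called in 1 or 2.

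H3K27me3 calls at the members were fewer in each OA library than in each vehicle library. The members under an H3K27me3 peak numbered 105, 127 and 117 in vehicle replicates 1 to 3, where the rule asked for such peaks and where 2.35%, 2.18% and 2.02% of all promoter regions had 1. In OA replicates 1 to 3 they numbered 80, 54 and 27, or 54.8%, 37.0% and 18.5% of the members. Among all promoter regions the corresponding OA shares were 3.16%, 1.18% and 0.361%, and 96.1% of all promoter regions had no vehicle H3K27me3 call to keep. A nearer comparison is the 188 promoter regions with H3K27me3 in at least 2 vehicle libraries but no vehicle H3K4me3 peak. They entered the promoter regions through OA H3K4me3 peaks alone, most often those of OA H3K4me3 replicate 3. OA replicates 1 to 3 had H3K27me3 at 60.6%, 39.9% and 12.2% of them. The order of the OA libraries was the same in these regions, in the members and over all promoter regions. Without the IgG members the OA counts were 64, 41 and 16 of 129. The OA library with the fewest calls at members was also the one with the fewest peaks in all, and the part that peak number plays in the OA counts was not tested at single members.

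**Figure D1:**
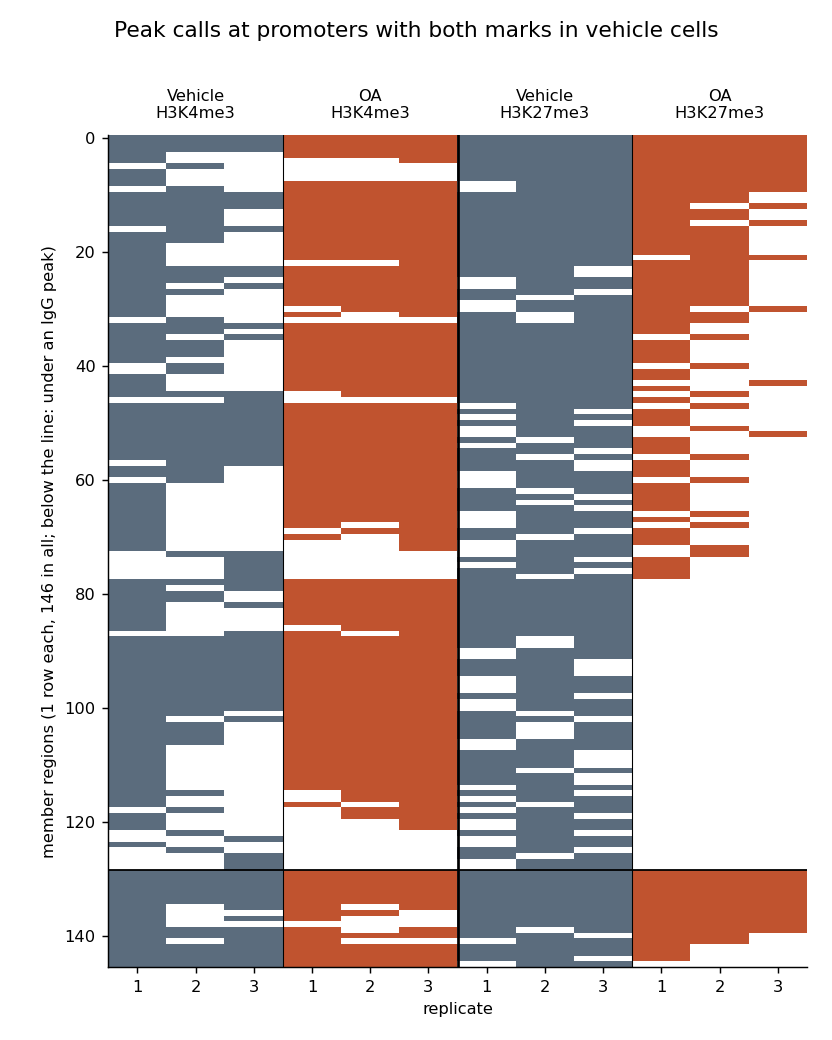
Peak calls at the 146 members. Each row is a member and each column a library. Filled cells are called, with gray for vehicle and orange for OA, and white cells have no peak. Rows are sorted by OA H3K27me3 calls, and the 17 members under the horizontal line lay under an IgG peak. The OA H3K27me3 columns have many white cells (80, 54 and 27 members called) and the OA H3K4me3 columns mostly filled (114, 113 and 125).

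At least 2 OA libraries had an H3K27me3 peak at 46 members, which is 31.5% of them, beside 0.739% of all promoter regions. Of the 188 regions with H3K27me3 in at least 2 vehicle libraries and no vehicle H3K4me3, 60 did (31.9%). These shares are close, but the sets differ in make-up. All 3 vehicle libraries had H3K27me3 at 55.3% of the 188 and at 39.0% of the members. Of the 188, 0 lay under an IgG peak, beside 17 of the members. At least 1 OA library had a peak at 94 members (64.4%, beside 3.77%) and all 3 had a peak at 21 (14.4%, beside 0.183%), and 52 members had none. The number of vehicle calls sorted the members. Of the 57 with H3K27me3 in all 3 vehicle libraries, 31 (54.4%) had it in at least 2 OA libraries, whereas 15 of the 89 with 2 vehicle calls did (16.9%). Among 206 promoter regions with an H3K4me3 vehicle peak that missed membership by having H3K27me3 in only 1 vehicle library, 12 (5.83%) had it in at least 2 OA libraries, and among 15237 with none, 3 did. Removing IgG members left 33 of 129 (25.6%) with at least 2 OA calls and 51 with none. When all 6 H3K27me3 files were reduced to their 9091 strongest peaks, 41 regions met the rule, 21 of them (51.2%) had at least 2 OA calls and 10 had none.

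**Figure D2:**
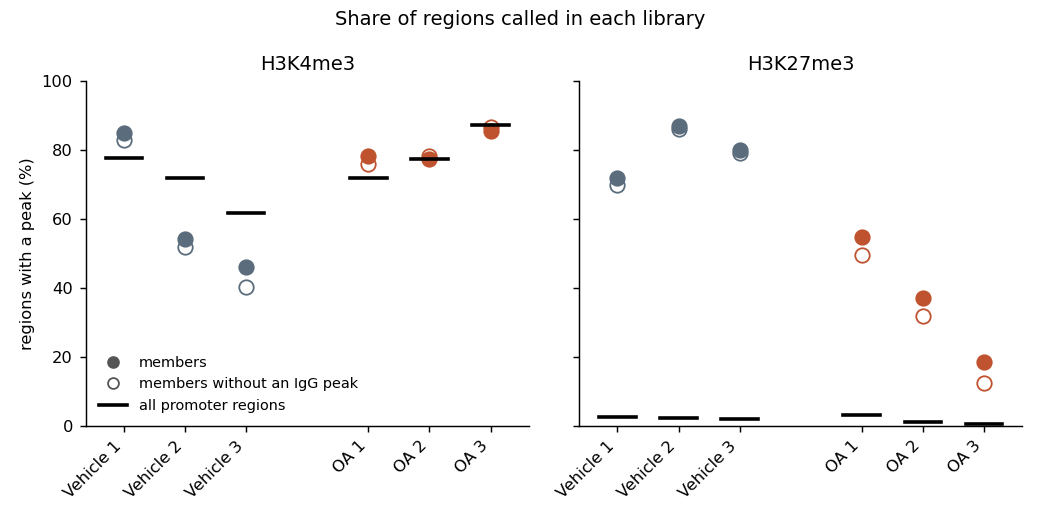
Share of regions (%) with a peak in each library, for H3K4me3 and H3K27me3. Filled points are the 146 members, open points the 129 members without an IgG peak, and black bars all 18539 promoter regions. For H3K27me3 the members lie above the bars in every library, between 18.5% and 54.8% in OA and between 71.9% and 87% in vehicle, where the rule asked for peaks. For H3K4me3 the vehicle points of replicates 2 and 3 lie below the bars (54.1% and 45.9% against 71.8% and 61.6%), and the OA points lie near them.

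A rule based on vehicle calls favors vehicle, so the same rule was applied with 1 vehicle H3K27me3 library held out at a time. The regions chosen on the other pair numbered 98, 76 and 86, and the held-out library had a peak at 58.2%, 75% and 66.3% of them. OA replicate 1 had a peak at 57.1%, 67.1% and 66.3% of the same regions, at or below the share of the held-out vehicle library. OA replicate 2 was lower at 45.9%, 48.7% and 41.9%, and OA replicate 3 lowest at 26.5%, 30.3% and 25.6%. OA replicates 2 and 3 thus had fewer calls at these regions than each held-out vehicle library, while OA replicate 1 was close to them. The spread among OA libraries was wider than the gap between OA replicate 1 and the held-out vehicle libraries. The mirror rule, which asked for both marks in OA cells instead, chose 129 regions, of which 101 (78.3%) had H3K27me3 in at least 2 vehicle libraries and 7 in none. Over all promoter regions, 137 had H3K27me3 in at least 2 OA libraries and 334 in at least 2 vehicle libraries. The mirror rule thus drew on fewer calls, and its share is not on a par with that of the members.

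**Figure D3:**
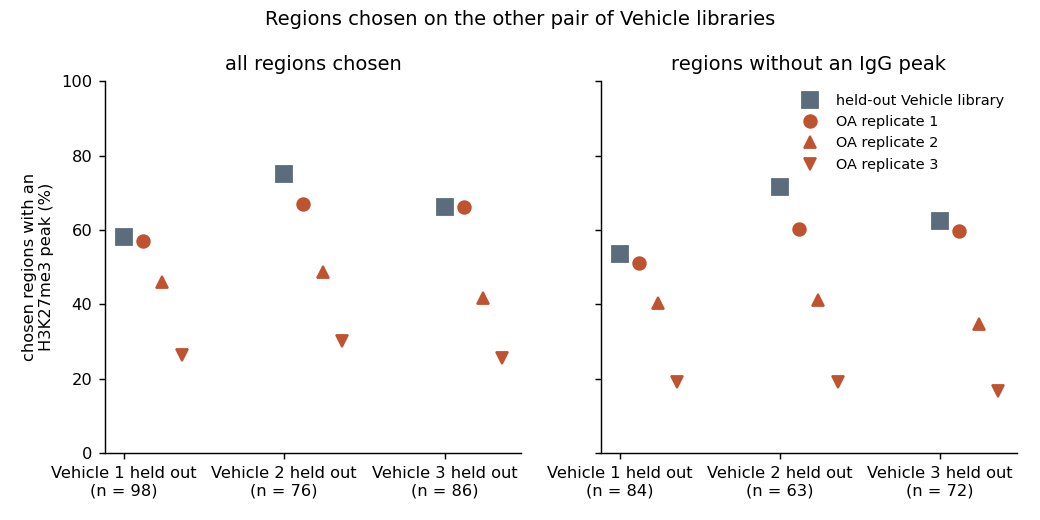
Share (%) of regions with an H3K27me3 peak, for regions chosen on a pair of vehicle libraries. Gray squares are the vehicle library left out of the choice, and orange symbols are the 3 OA libraries. In the left panel OA replicate 1 (57.1 to 67.1%) lies beside the held-out vehicle library (58.2 to 75%), with OA replicates 2 and 3 below, and the right panel shows the same without regions under an IgG peak.

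The comparison of the exposures that the choice of members does not enter is the number of all promoter regions under an H3K27me3 peak in each library. It was 435, 405 and 374 in the vehicle libraries (405 ± 30.5, SD, n = 3) and 585, 218 and 67 in the OA libraries (290.0 ± 266, SD, n = 3). The OA counts lay on both sides of the vehicle counts. The difference of -115 regions did not pass a two-sided exact permutation test (p = 0.5), and 3 libraries against 3 cannot give a p below 0.1. Leaving out OA replicate 1 changed the difference to -262 regions and leaving out OA replicate 3 to -3.17, so the size rests on those libraries.

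Members at which the calls of the exposures did not overlap, with H3K27me3 in all 3 vehicle libraries and in no OA library, numbered 10. They were 6.85% of members beside 0.14% of all promoter regions (26 in all), a contrast favored by the rule, which asked for vehicle peaks. Of the 57 members with H3K27me3 in all 3 vehicle libraries they were 10. Among regions with H3K4me3 in OA alone, 16 of the 104 with 3 vehicle H3K27me3 calls had the same pattern. The reverse, H3K27me3 in every OA and no vehicle library, was found at 0 of the 18539 promoter regions. It had little room to occur, since only 34 promoter regions had H3K27me3 in all 3 OA libraries. None of the 10 lay under an IgG peak. They were named after SP5 and HOXB2, which encode transcription factors, BMP6, FGF14, EFNB3, FGFR1 and CHRM4, which encode signaling ligands and receptors or their relatives, and SPSB4, HAP1 and SOWAHB.

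HOXB2, a homeobox factor of hindbrain patterning, had H3K27me3 peaks of 3.65-, 3.80- and 3.62-fold enrichment over background in the vehicle libraries and none in the OA libraries. Its H3K4me3 peaks were called in all 6 libraries, at 6.13-, 11.0- and 5.06-fold in vehicle and 7.26-, 9.56- and 9.89-fold in OA. The region (chr17:48543070-48544591) covered the start site, and 69.6% of it lay under a vehicle H3K27me3 peak. Both marks thus shared this promoter in vehicle cells, and H3K4me3 alone was called after OA, with overlapping enrichment values.

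BMP6, a bone morphogenetic protein, had vehicle H3K27me3 peaks of 3.22-, 3.10- and 3.23-fold and 1 vehicle H3K4me3 peak, of 7.14-fold. All 3 OA libraries had an H3K4me3 peak there, of 6.43-, 6.55- and 6.76-fold. Here the OA peaks were not stronger than the vehicle peak, and the exposures differed in how many libraries had one. EFNB3, an ephrin ligand of Eph receptors used in axon guidance, had H3K27me3 of 4.11-, 3.17- and 4.12-fold in vehicle, H3K4me3 of 4.99-fold in vehicle replicate 1, and H3K4me3 of 6.31-, 7.99- and 10.9-fold in OA. In this promoter each OA value of H3K4me3 exceeded the vehicle value. SP5, a WNT-responsive transcription factor of the SP family, had H3K27me3 of 3.03-, 3.08- and 3.51-fold in vehicle, H3K4me3 of 4.98- and 5.80-fold in vehicle replicates 1 and 3, and H3K4me3 of 5.54-, 8.53- and 8.02-fold in OA.

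The receptor tyrosine kinase gene FGFR1 had vehicle H3K27me3 peaks of 3.50-, 3.05- and 3.73-fold, and 89.1% of its region lay under them. Its H3K4me3 was 6.71- and 6.36-fold in vehicle replicates 1 and 2 and 4.85-, 6.85- and 7.16-fold in OA, so the values of the exposures overlapped. FGF14, an intracellular relative of the fibroblast growth factors that binds sodium channels, was fully covered by vehicle H3K27me3 (3.48-, 2.90- and 3.02-fold) and had H3K4me3 peaks in 1 vehicle library (5.46-fold) and in all 3 OA libraries (4.89-, 6.91- and 9.17-fold). CHRM4, the M4 muscarinic acetylcholine receptor, is named for a short region of 356 bases that lay 1893 bases from its nearest start site. The remaining SPSB4, an adaptor of a ubiquitin ligase, HAP1, which encodes huntingtin-associated protein, and SOWAHB had vehicle H3K27me3 of 2.70- to 3.72-fold.

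**Figure D4:**
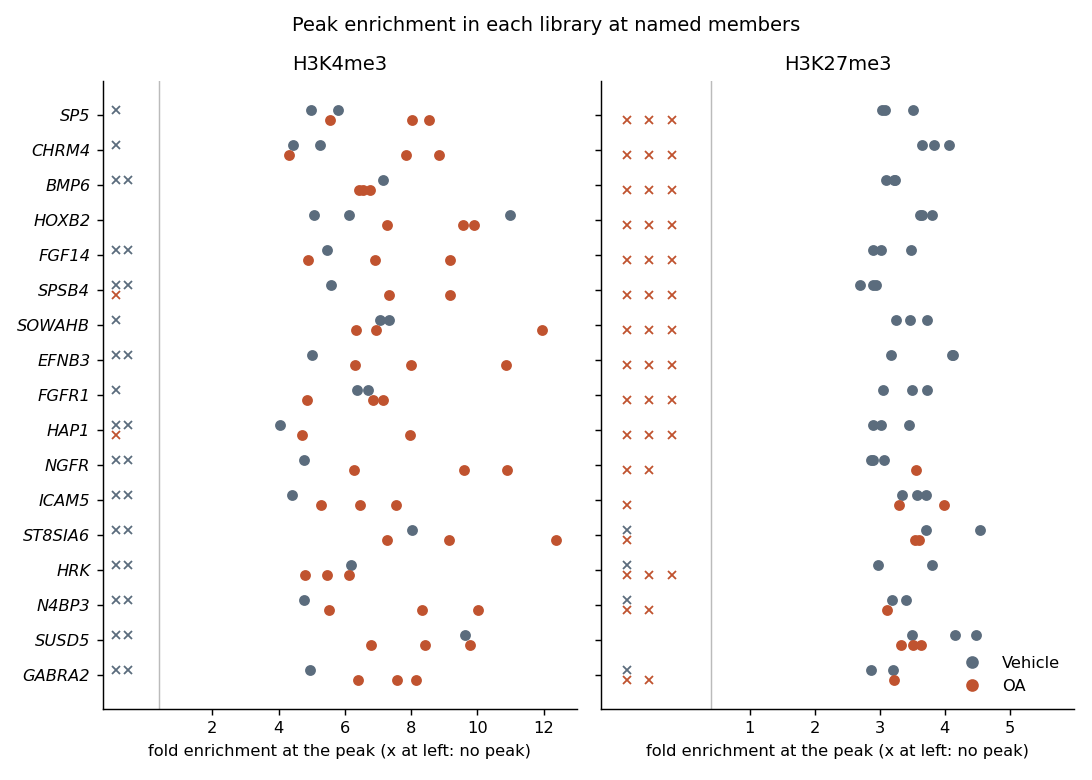
Fold enrichment at the peak in each library (points) for 17 named members, with gray for vehicle and orange for OA. Crosses at the left mark libraries with no peak. The upper 10 genes, SP5 to HAP1, had an H3K27me3 peak in each vehicle library and crosses in all OA libraries; at the lower genes, H3K4me3 was called in 1 vehicle library and in all 3 OA libraries. Values are not scaled between libraries.

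At the other end, 18 members had H3K27me3 in all 6 libraries (12.3%, beside 0.156% of all promoter regions), and 10 of these lay under an IgG peak. Among the 10 ranked highest by the weakest of their 6 peaks, 8 lay under an IgG peak, among them DUX4, ROCK1P1, MUC3A and RPH3AL. The 8 all-library members without an IgG peak included the protein-coding genes IGFBP2 and SUSD5. IGFBP2, an insulin-like growth factor binding protein, had a region of 306 bases that was covered entirely in both exposures.

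For H3K4me3 the library counts of the exposures overlapped. Vehicle replicates 1 to 3 had an H3K4me3 peak at 124, 79 and 67 members and OA replicates 1 to 3 at 114, 113 and 125. Vehicle replicates 2 and 3 lay below every OA library, whereas vehicle replicate 1 lay above OA replicates 1 and 2. As shares of the members the OA counts were 78.1%, 77.4% and 85.6%, beside 71.8%, 77.5% and 87.1% of all promoter regions. However, 15.9% of all promoter regions had H3K4me3 in OA alone, which the rule did not allow at members. Of the 15237 regions with vehicle H3K4me3 and no vehicle H3K27me3, 80.9%, 85.0% and 88.4% were called in OA replicates 1 to 3. Members were thus called less often than these regions in each OA library. All 3 OA libraries had a peak at 104 members (71.2%, beside 68.1% of all promoter regions and 79.3% of the 15237). No OA peak was found at 18 members (12.3%, beside 8.67% and 10.3%). No member had H3K4me3 in all 3 vehicle libraries and in no OA library (0 of 146, beside 0.027% of all promoter regions). A peak in all 6 libraries was found at 44 members (30.1%, beside 56.9%). By vehicle H3K4me3 calls, 68 members had 1 (46.6%, beside 14.9% of all promoter regions), 32 had 2 (21.9%, beside 11.2%) and 46 had 3 (31.5%, beside 58%).

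More OA than vehicle libraries had an H3K4me3 peak at 72 members (49.3%, beside 27.9% of all promoter regions), and fewer had one at 22 (15.1%, beside 10.8%). Without the IgG members the counts were 71 and 18 of 129. Among promoter regions that also had at least 1 vehicle H3K4me3 peak but no vehicle H3K27me3, the shares were 13.6% and 12.9%. With every H3K4me3 file reduced to its 16086 strongest peaks, 52 of 118 members had more OA calls and 22 fewer, against 11.2% and 12.7% of the regions without H3K27me3. The imbalance at members was therefore present with equal peak numbers.

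The gain of H3K4me3 calls was compared next among promoters that started from the same number of vehicle calls. Of the 66 members without an IgG peak that had H3K4me3 in exactly 1 vehicle library, 33 (50%) had it in all 3 OA libraries, against 352 of 2625 promoter regions without vehicle H3K27me3 (13.4%); over all promoter regions, 2.25% had 1 vehicle and 3 OA calls. The members in this comparison were longer, with a median of 891 bases against 306. Limited to regions over a protein-coding start site with a CpG ratio of at least 0.6, the shares were 27 of 40 members (67.5%), 25 of 42 regions with H3K27me3 in 1 vehicle library (59.5%) and 174 of 315 without vehicle H3K27me3 (55.2%). Among CpG-rich start sites with a vehicle H3K4me3 call in 1 library, gain of calls in OA was thus common with and without H3K27me3. The difference between those shares was not tested.

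The members with H3K4me3 in 1 vehicle and all 3 OA libraries were led, by the weakest of their OA peaks, by NGFR, ICAM5, ST8SIA6 and HRK. NGFR, the p75 neurotrophin receptor and a marker of basal mammary cells, had an H3K4me3 peak of 4.75-fold and 191 bases in vehicle replicate 1 and none in the other vehicle libraries. The OA peaks were 6.27-, 10.9- and 9.61-fold and 1253, 1539 and 1820 bases wide. H3K27me3 was called at NGFR in each vehicle library (2.89-, 3.07- and 2.87-fold) and in OA replicate 3 alone (3.56-fold), the OA library with the fewest peaks.

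ICAM5, a neuronal cell adhesion molecule, also had a member region over chr19:10289752-10289951, which is not described here. At the region chr19:10290991-10292487 it kept H3K27me3 in OA replicates 1 and 2 (3.29- and 3.98-fold) beside H3K4me3 in all 3 OA libraries (5.27-, 7.55- and 6.47-fold). ST8SIA6, a sialyltransferase, had the same set of OA calls. HRK, a BH3-only activator of apoptosis, had H3K27me3 in vehicle replicates 1 and 2 (2.97- and 3.80-fold) and in no OA library. Its H3K4me3 peak was 530 bases wide in vehicle replicate 1 and 1547, 1757 and 2625 bases wide in OA, although its enrichment was 6.18-fold in vehicle and 4.80-, 6.13- and 5.47-fold in OA. SUSD5, a membrane protein with a sushi domain, had both marks in all 3 OA libraries, with H3K27me3 of 3.52-, 3.33- and 3.64-fold. N4BP3, which encodes a NEDD4-binding protein, and GABRA2, a subunit of the GABA-A receptor, had H3K27me3 in OA replicate 1 alone. These promoters shared the H3K4me3 pattern by which they were picked, and their H3K27me3 in OA ranged from 0 to 3 libraries.

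H3K4me3 peaks at members were narrow and low ranking in vehicle cells. Their median percentile among the peaks of their own library, ranked by the caller's p-value, reached 31.4, 25.9 and 34.1 in the vehicle libraries and 35.3, 33.4 and 47.7 with OA. Other promoter regions had median percentiles of 63.1, 58.9 and 62.6 with vehicle and 60.4, 59.1 and 60.8 with OA. Median peak width at members was 520.5, 661 and 319 bases in vehicle and 692.5, 911 and 1196 bases in OA, so every OA median was wider than every vehicle median. At the other promoter regions the medians were 1093, 1181 and 765 bases in vehicle and 910, 1125 and 1165 bases in OA, which overlapped. These medians cover only libraries with a call, so the sets of members behind them differ. At the 44 members with H3K4me3 in all 6 libraries, widths overlapped between the exposures, with medians of 974.5, 958.5 and 484.5 bases in vehicle and 934.5, 1092.5 and 1245 bases in OA.

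Around the start site the marks had different shapes. Over the 90 members that covered a protein-coding start site without an IgG peak, H3K4me3 was centered just downstream of the start. At 100 bases downstream a vehicle peak covered 67.8%, 40.0% and 17.8% of them and an OA peak 63.3%, 71.1% and 95.6%. Vehicle replicate 1 lay within the OA range at that position. At 200 bases downstream the vehicle values were 63.3%, 38.9% and 18.9%, all below the OA values of 66.7%, 71.1% and 93.3%. H3K27me3 was broader and lay toward the gene body. At 1000 bases downstream it covered 22.2%, 36.7% and 22.2% of these members in vehicle and 15.6%, 14.4% and 2.22% in OA, and at 1000 bases upstream 8.89%, 14.4% and 7.78% in vehicle. Over all 146 members, the strongest H3K4me3 summit lay under a vehicle H3K27me3 peak at 104 (71.2%) and under an OA H3K27me3 peak at 54 (37.0%). The median member had 66.3% of its length under vehicle H3K27me3 and 18.8% under OA H3K27me3, and 28 members were fully covered in vehicle. Because the rule asked for vehicle H3K27me3 peaks at every member, these H3K27me3 shares favor vehicle and do not measure a change between the exposures.

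**Figure D5:**
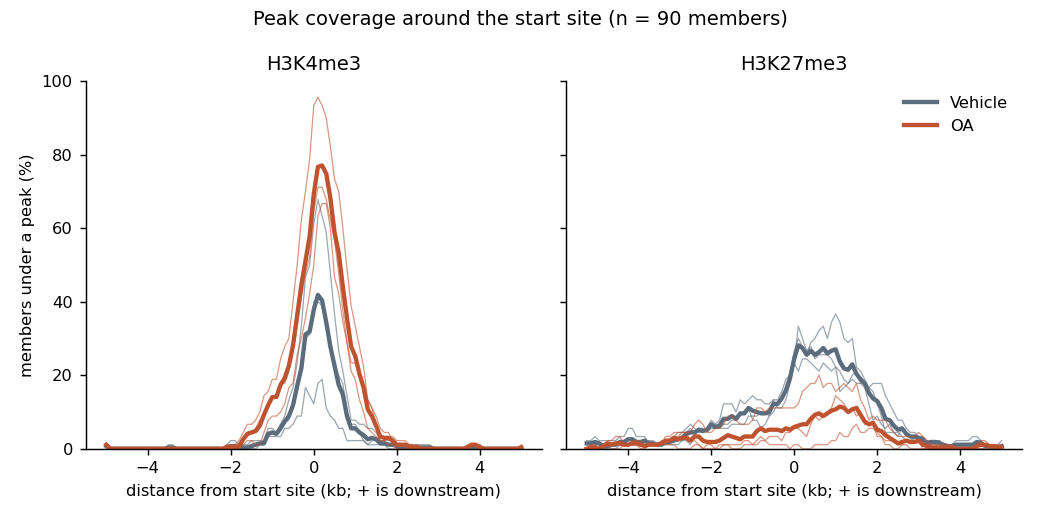
Share (%) of 90 members under a peak by distance from the start site in kb, with downstream positions to the right. Thin lines are the 3 libraries of each exposure and thick lines their mean, with gray for vehicle and orange for OA. H3K4me3 is highest close to the start, with a mean of 41.9% in vehicle at 100 bases downstream and 77.0% in OA at 200 bases. The vehicle spread at 100 bases is wide (17.8 to 67.8%). H3K27me3 is broader and lies mostly downstream, at 22.2 to 36.7% in vehicle, where the rule asked for peaks, and 2.22 to 15.6% in OA at 1 kb.

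Both calls together gave 36 members with H3K4me3 in all 3 OA libraries and H3K27me3 in none (24.7%), 35 of them without an IgG peak. This combination was found at 66.2% of all promoter regions, most of which had no H3K27me3 in either exposure. Beside BMP6, EFNB3, FGF14, FGFR1, HOXB2 and HRK they included HOXB3, VLDLR, EPHA6 and LRRC26. VLDLR and EPHA6 lay at the edge of the rule, their deciding vehicle H3K27me3 peaks ranking at percentile 0.0168 and 0.181 of their libraries. A further 12 members had both marks in all 3 OA libraries (8.22%, beside 0.0755% of all promoter regions), 6 of them without an IgG peak. Neither mark was called in any OA library at 7 members (4.79%, beside 8.47%). Seen from H3K27me3 alone, 334 promoter regions (1.8% of all) had it in at least 2 vehicle libraries, and 188 of these had H3K4me3 peaks in OA libraries only and so were no members (56.3%, beside 15.9% of all promoter regions). Of the 188, 176 (93.6%, beside 87.1%) had the peak in OA replicate 3, the H3K4me3 library with the most peaks. OA replicates 1 and 2 had it at 67 and 62. At 104 (55.3%, beside 14.4%) only 1 OA library had it. The members are thus fewer than the H3K27me3 promoters that showed H3K4me3 in either exposure.

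By gene role, 124 protein-coding genes had a start site within 3 kb of a member, which is 0.877% of the 14138 with a promoter region. Of these, 29 fell in at least 1 of 17 lists of pathways and cell types. In the HOX clusters 2 of 25 genes (8%) had a member, HOXB2 and HOXB3, and neither had H3K27me3 in any OA library. At HOXB3 the region lay 2490 bases from the nearest start site, and its H3K4me3 was called in all 6 libraries. Other homeobox factors contributed 1 of 78 (BARX2) and further developmental transcription factors 1 of 95 (LMX1B).

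Genes of neurotransmitter receptors, the neurotrophin system and axon guidance contributed 9 of 120 (7.50%), the highest count in the largest list, while the shares of the Notch, HOX and BMP lists were higher. These were the muscarinic receptors CHRM3 and CHRM4, the glutamate receptor genes GRIN1 and GRM7, GABRA2, NGFR, the ephrins EFNA3 and EFNB3, and the ephrin receptor EPHA6, with GRIN1 counted through a region named after its neighbor LRRC26. At 7 of the 9, more OA than vehicle libraries had H3K4me3, beside 73 of all 124 genes. H3K27me3 was called in at least 2 OA libraries at 2 of the 9 (27 of 124), in 1 at 3 (43 of 124) and in none at 4 (54 of 124). The members of this list thus had OA H3K27me3 calls in proportions close to those of all member genes.

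Each of 3 lists of morphogen and cell-contact pathways held 2 member genes. The WNT list held 2 of 36 (5.56%), AXIN2, a negative regulator and target of the pathway, and RSPO2, an R-spondin that amplifies it. AXIN2 kept H3K27me3 in 2 OA libraries (3.41- and 3.66-fold, beside 3.76- and 3.71-fold in 2 vehicle libraries) and had H3K4me3 in all 6. The BMP and TGF-beta list held 2 of 26 (7.69%), among them BMP6. The Notch list held 2 of 19 (10.5%), the ligands DLL4 and DLL1, of which DLL1 was counted through a region named after its neighbor FAM120B. DLL4 had H3K27me3 in all 3 vehicle libraries (3.97-, 3.27- and 3.51-fold) and in OA replicate 1 (3.10-fold), and H3K4me3 in 1 vehicle library (5.76-fold) and all 3 OA libraries (4.79-, 6.13- and 6.66-fold). The list of receptor tyrosine kinases and their ligands gave 2 of 45, FGFR1 and FGF14, although FGF14 is an intracellular relative of the ligands. The Eph receptor EPHA6 and the ephrins EFNA3 and EFNB3 were counted in the list with axon guidance instead. Ion channels gave 2 of 81, SCN9A and KCNMB4.

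Epithelial and mammary lists held 1 or 2 members each. Cadherins and genes of epithelial-mesenchymal transition gave 2 of 32 (6.25%), the mesenchymal cadherin CDH11 and the protocadherin PCDH1. Of the mammary lineage genes 1 of 32 (3.13%) was a member, PARM1, a mucin-like membrane protein. PARM1 had H3K27me3 of 4.04- and 3.45-fold in 2 vehicle libraries and 3.39- and 3.58-fold in 2 OA libraries, while its H3K4me3 peaks were 302 and 219 bases wide in 2 vehicle libraries and 1148, 1406 and 1631 bases wide in OA. PARM1, PCDH1, DLL4 and NGFR had been picked with results of these data known. Keratins and the epidermal differentiation complex gave 1 of 30 (3.33%), LCE2D.

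BMI1, a core subunit of Polycomb repressive complex 1, was the single member among 49 H3K4 and H3K27 methylation enzymes and related genes. It had H3K27me3 of 4.13-, 5.26- and 3.98-fold in vehicle and 4.34-fold in OA replicate 1. ATF3, a stress-induced transcription factor, was the single member among 37 genes of serine and folate metabolism and the stress response. Its H3K27me3 peaks were low in fold, at 2.11-, 2.23- and 2.34-fold in vehicle and 2.70-fold in OA replicate 1, but ranked by p-value at percentile 56.5, 96.1 and 96.0 of the vehicle libraries and 97.9 of OA replicate 1. They lay over 25.8% of the region, and H3K4me3 was called in all 6 libraries. Clustered protocadherins (0 of 19), ribosomal protein genes (0 of 86) and respiratory chain genes (0 of 81) had no member.

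The untreated H3K4me3 libraries, which the rule did not use, had a peak at 41 and 35 members (28.1% and 24.0%, beside 52.4% and 47.3% of all promoter regions) and at 26 and 19 of the 129 without an IgG peak. They held 12924 and 11242 peaks, fewer than any vehicle or OA H3K4me3 library. At the edge of the rule, the members with the weakest deciding H3K27me3 peak were VLDLR, EPHA6 and KANK3. Those peaks ranked at percentile 0.0168, 0.181 and 0.287 of their libraries, and VLDLR and EPHA6 had no OA H3K27me3 call while KANK3 had 1. The regions just outside, with 1 vehicle H3K27me3 peak of percentile 99.3 to 99.5, all lay under an IgG peak and were named after MTCYBP13 and DUX4-like copies.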

How the data were processed

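CUT&RUN peak lists of 16 libraries were used. Per the labels and methods, the authors called narrow H3K4me3 and IgG peaks and broad H3K27me3 peaks on build hg38. MACS2 version 2.2.7.1 and SICER are named in the submitters' processing notes, and the broad files have the MACS2 broadPeak layout, with q-values up to 0.1 (narrow files up to 0.01). The deposited peak values are the fold enrichment (a ratio to background) and the −log10 of the p-value and q-value. Peaks were called in each library separately and values are not scaled between libraries. The aligner, duplicate handling and use of IgG in calling are not given in the sources used here.

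Peaks on unplaced sequences were left out (0.399% to 17.3% of a file). H3K4me3 peaks were merged (1 base), assigned to GENCODE release 44 transcript starts within 3 kb and overlapped with the other files (Python 3.11.15, numpy 2.4.6, pandas 2.3.3, scipy 1.17.1, matplotlib 3.10.9). All peaks ended within the hg38 chromosomes. Sequences are from hg38. A region took the name of the protein-coding gene with the nearest start within 3 kb, or else of the nearest gene. The rule found all 537 planted members among 1000 simulated sites.

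Members, gene lists and named genes were chosen with earlier results of these data known. Named were up to 10 members by the weakest of their peak percentiles in each class of calls (H3K27me3 in all 6 libraries; in all 3 vehicle and no OA; H3K4me3 in 1 vehicle and all 3 OA), up to 4 for each list, 3 at each side of the rule's threshold, and genes the study discusses. Other genes were named after their values were seen. A few items are not reported here. The single test is a two-sided exact permutation test over libraries. Alternatives were stricter q-values, equal peak numbers, other overlap, distance and annotation rules, leaving out libraries or IgG regions, the mirror rule and a replicate block.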

Additional observations from a re-analysis of the deposited data

How the results depend on the processing

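The number of members moved with the strictness of the rule. At an H3K27me3 q of at most 0.01, 41 regions met the rule, with H3K27me3 in at least 2 OA libraries at 15 and in none at 16, and H3K4me3 in all 3 OA libraries at 28. With equal numbers of H3K27me3 peaks the same counts were 41, 21, 10 and 27, and with H3K27me3 over at least 50% of the region 45, 19, 16 and 21. Asking for H3K27me3 in all 3 vehicle libraries gave 57 members, with 10 at no OA H3K27me3 and 44 at H3K4me3 in all 3 OA libraries. Asking for H3K4me3 in all 3 vehicle libraries gave 46, 16, 15 and 44. With protein-coding starts only, 23 members had H3K27me3 in at least 2 OA libraries. The mirror rule gave 101 and 7 regions with H3K27me3 in at least 2 and in no vehicle library. Equal peak numbers for both marks, added after seeing the data, gave 32, 16, 9 and 19. Leaving out 1 library at a time gave 76 to 146 members, 22 to 46 with at least 2 OA H3K27me3 calls, 19 to 87 with none, and 56 to 112 with H3K4me3 in every remaining OA library. Members numbered 76, 86 and 97 without vehicle H3K27me3 replicate 2, vehicle H3K27me3 replicate 3 and vehicle H3K4me3 replicate 1, since the rule then had fewer libraries to meet it. Without OA H3K27me3 replicate 1, 22 members had H3K27me3 in both remaining OA libraries and 87 in none, and without replicate 2, 24 had it in both.

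The difference in promoter regions under H3K27me3 stayed negative under the 23 alternatives run, from -262 to -3.17 when a library was left out, and none passed the test. At a q of at most 0.01 the vehicle and OA counts did not overlap (difference -79.7, exact permutation p = 0.1, the smallest 3 against 3 allows). Same-numbered libraries were compared as pairs in a replicate block, which left the difference at -115 (exact sign-flip p = 0.5, smallest possible 0.25). The correlations of same-numbered deviations were 0.0894, 0.0208 and 0.0343 for H3K27me3 and -0.0263, 0.0753 and -0.056 for H3K4me3. Those of differently numbered libraries ran from -0.102 to 0.0954 for H3K27me3 and from -0.0673 to 0.0773 for H3K4me3. With 3 libraries for each exposure these values cannot settle whether the numbers pair the libraries. Depth is unknown, so a promoter without a call cannot be told apart from 1 with signal below the threshold.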
